A study of Mus musculus with 4 samples.

Results

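The transcription factor AP-1 (activator protein 1) was examined through the RNA of 10 of its genes in 4T1 cells, a mouse mammary carcinoma line, given either phosphate-buffered saline (the PBS group) or recombinant IL-17A (the rIL17 group). The genes were Fos, Fosb, Fosl1 and Fosl2 of the FOS subfamily, Jun, Junb and Jund of the JUN subfamily, and Atf3, Batf3 and Maff. They were found by symbol, and 10 of 10 were among the 21840 genes of the deposited table. Each group had 2 libraries, 4 in all, made from total RNA of wild-type 4T1 cells grown with serum and antibiotics; the labels used here give no dose or length of treatment. Nothing states that replicate libraries stem from different cultures, and their spread, on which the p-values rest, may be technical.

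AP-1 is a dimer of basic leucine zipper (bZIP) proteins. FOS proteins do not pair with themselves and need a partner such as a JUN protein, whereas JUN proteins also pair with each other, and the dimer binds the sequence TGAGTCA or close variants of it. Fos, Fosb, Junb and Atf3 are immediate early genes: their RNA rises within minutes of a stimulus and then decays, and MAP kinase signals reach them through factors bound to their promoters. IL-17A signals through its receptor and the adaptor Act1 to NF-kB and MAP kinases, both of which can feed into AP-1.

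Promoter sequence is shown for 4 of these genes: the FOS subfamily genes with both rIL17 libraries above the PBS ones, and Jun, whose promoter holds the variant AP-1 site through which its protein is known to act on its own gene. RefSeq promoter entries on GRCm38.p6 were matched for 9 of the 10 genes, all but Fosl1. The capitals mark an NF-kB site in Fos and Fosb, a pair of overlapping NF-kB sites in Fosl2 and TGACATCA in Jun. The Fos, Fosb and Jun stretches end at the gene's start, the Fosb stretch being 244 bases because the last bases of its window are exon in GENCODE. The Fosl2 window lies in an annotated exon, and 30 bases around its match are given. The positions are chr12:85473640-85473889 (plus strand) for Fos, chr7:19310052-19310295 (minus strand) for Fosb, chr5:32136280-32136309 (plus strand) for Fosl2 and chr4:95052223-95052472 (minus strand) for Jun.
Fos: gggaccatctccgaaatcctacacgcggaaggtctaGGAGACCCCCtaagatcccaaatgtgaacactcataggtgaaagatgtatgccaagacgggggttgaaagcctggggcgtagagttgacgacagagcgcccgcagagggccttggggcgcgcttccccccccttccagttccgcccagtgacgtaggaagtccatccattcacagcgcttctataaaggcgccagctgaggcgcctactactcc
Fosb: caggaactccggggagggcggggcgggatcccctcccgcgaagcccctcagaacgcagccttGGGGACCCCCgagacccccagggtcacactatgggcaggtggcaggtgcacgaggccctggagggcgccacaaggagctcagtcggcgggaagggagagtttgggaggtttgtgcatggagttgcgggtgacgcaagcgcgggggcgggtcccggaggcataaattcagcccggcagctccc
Fosl2: agatcggggaGGGAGTCCCCCagagctgcc
Jun: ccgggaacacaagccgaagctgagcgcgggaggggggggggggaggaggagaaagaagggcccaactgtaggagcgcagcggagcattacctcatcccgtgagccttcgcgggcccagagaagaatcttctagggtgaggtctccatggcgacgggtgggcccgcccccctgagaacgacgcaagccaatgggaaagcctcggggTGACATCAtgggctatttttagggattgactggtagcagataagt

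Both strands of the 250 bases before each start were searched for 7 motifs, without regard to overlap between motifs. The starts are those of the RefSeq entries and can differ from the GENCODE gene starts. The Jund window (70697489 to 70697738) ends upstream of the gene start at 70698949. The windows of Atf3, Batf3 and some of the Maff entries lie inside the gene. An NF-kB site was matched in Fos, Fosb, Fosl2 and Maff, 4 of the 9 genes with an entry, and in 7.25% of all 32851 promoters. TGACATCA was matched in Jun, at 45 to 38 bases before the start, and in Maff, against 2.93% of all promoters. TGACGTCA, the cyclic AMP response element, was matched in Maff (1.55% of all promoters), TTGCNNAA, a C/EBP-type sequence, in Jund and Maff (9.56%) and TTCNNNGAA, a STAT-type sequence, in Batf3 (7.02%). TGAGTCA (4.46%) and the CArG box (1.47%), which binds the serum response factor, were matched in 0 of the 9. Maff has 3 entries and so more bases searched than the other genes. A match describes the letters only, and no match says only that those letters are not in the window.

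The total of normalized counts per library was 17413365 to 18005398. A normalized count here is the deposited value, handled as a read count scaled by 1 factor per library, as its even steps allow. The libraries differed along the GC content of transcripts, the second PBS library most. Among genes below 40% GC its median lay 0.47 below the first PBS library on the log2 scale, and among those of 60% or more 0.08 above it. Below 40% GC the rIL17 mean lay a median of 0.29 above the first PBS library and 0.54 above the PBS mean. This skew differed between the groups and cannot be told apart from the treatment. The AP-1 transcripts lie between 51.9% (Fos) and 67.1% GC (Jund), where the group difference had a median of -0.06 to -0.07, so values with a correction for GC content are given beside the results. Of the epithelial markers, Krt8 (25498 to 32665 normalized counts) and Krt18 were abundant, while Epcam and Cdh1 were at 76.6 to 208. For 3 of these 4 the rIL17 group lay below PBS without overlap, against 20.0% of all genes. These were Krt8 (log2 fold change -0.26), Krt18 (-0.27) and Cdh1 (-0.45), none of which passed limma (adjusted p = 0.370 to 0.373). Fosl1 (-0.28), Jund (-0.22), Jun and Atf3 lay in the same direction, and Fos, Fosb, Fosl2 and Batf3 in the other. The part of the epithelial difference in the AP-1 values was not tested. Of 7 leukocyte markers 3 were not analysed here, Ptprc was at 3.02 and 2.01 in rIL17 and at 0 in each PBS library, and the sum of the list was 120 and 122 in PBS and 113 and 132 in rIL17, most of it Cd68. The fibroblast list summed to 2444 and 2554 in PBS and to 2971 and 2967 in rIL17, nearly all of it Pdgfra. Of its 5 genes, 2 lay above PBS without overlap and 2 below, against 25.4% and 20.0% of all genes. Above were Pdgfra (log2 fold change 0.26) and the scarcer Dcn (1.26, or 0.59 with the GC correction). Below were Pdgfrb (-0.47) and Col1a1 (-0.55), both scarce. None of these passed limma (adjusted p = 0.370 to 0.438).

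The AP-1 genes lay on both sides of PBS. RNA of a whole culture cannot tell fewer cells that express a gene from less RNA per cell. By limma (log2 of the normalized count + 1, Benjamini-Hochberg adjustment), 0 of the 10 genes passed an adjusted p of 0.05 among the 20677 genes tested, against 0% of all genes. That fit also made no calls on simulated data with planted fold changes, so its lack of calls does not show a lack of difference. At an unadjusted p below 0.05 there were 4 of the 10 (Fos, Fosl1, Jund and Atf3) and 2642 of all genes (12.8%), and limma-voom called 1 gene, which was no AP-1 gene. With the stricter filter (a mean CPM of 1 or more, and 10 or more normalized counts throughout either group), 0 of the 10 passed, against 0.807% of 12515 genes. In 4 genes each rIL17 library lay above each PBS library, as in 25.4% of all genes, and in 4 both lay below, as in 20.0%. The median log2 fold change of the 10 was 0.002, beside 0.01 for all genes tested.

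**Figure D1:**
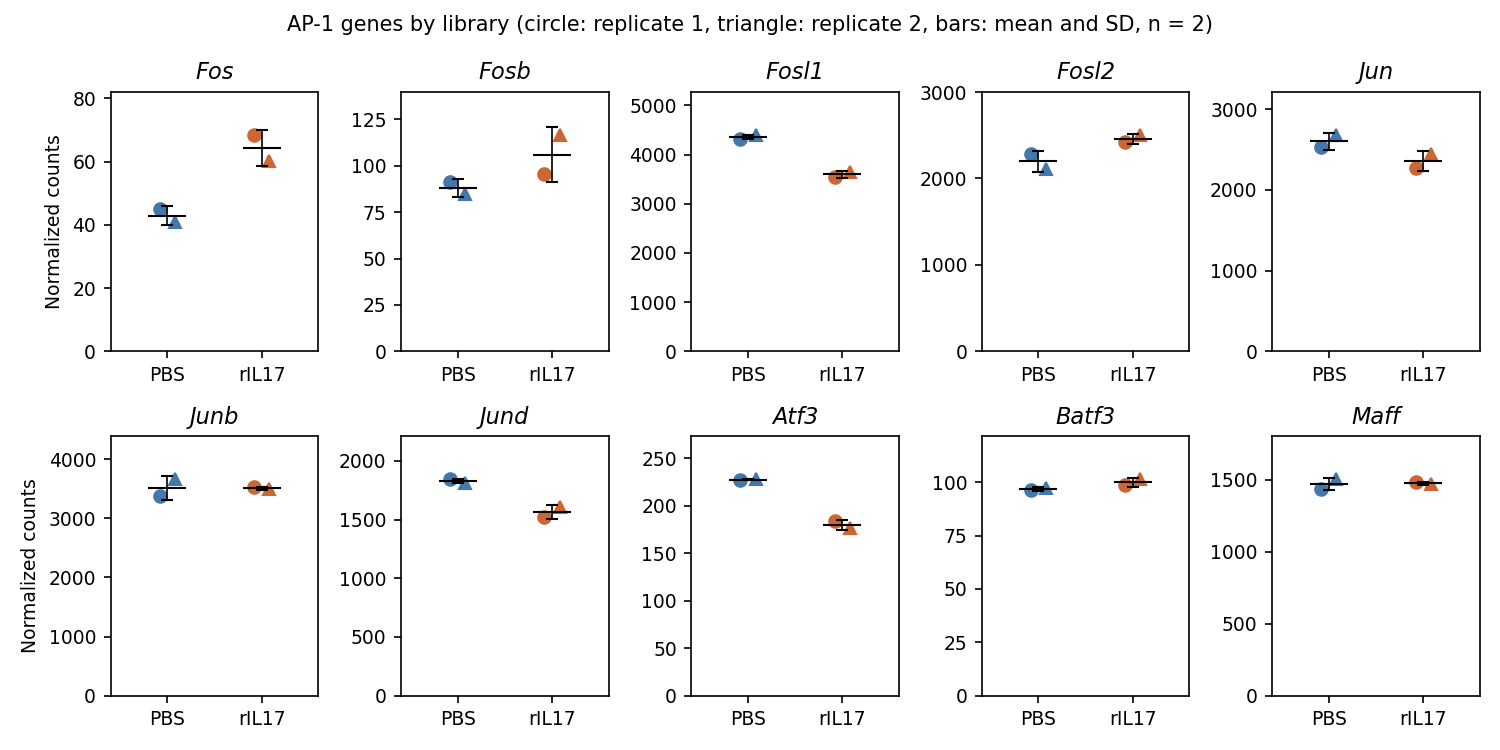
Normalized counts (vertical axis, from 0) of each AP-1 gene in the 2 PBS and 2 rIL17 libraries; circles are replicate 1, triangles replicate 2, and the bars give the mean and SD. Fos is at 40.8 to 68.4 and Fosl1 at 3548 to 4392, and the groups overlap in Junb and Maff.

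Fosl1 was the most abundant FOS gene of these cells. It encodes FRA-1, a FOS protein without the transactivation domain of FOS, long studied in invasive mammary carcinoma. Its RNA stood at 4322 and 4392 normalized counts in PBS and at 3548 and 3651 in rIL17. The rIL17 libraries were the lower ones, by more than either pair differed. The mean went from 4357 ± 49.7 to 3599 ± 72.8 (SD, n = 2 per group), a log2 fold change of -0.28 (SE 0.04, 95% confidence interval -0.39 to -0.16, limma adjusted p = 0.370). With the stricter filter the limma adjusted p was 0.107. With a library left out, the log2 fold change was -0.30 to -0.26. The GC correction gave -0.23.

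The count of Fosl1 (ENSMUSG00000024912, mm10 chromosome 19, 5447547 to 5455946, plus strand) carries a limit of its own. Of its 2033 exon bases, 1163 (57.2%) lie opposite exons of Ccdc85b on the minus strand. No source used here gives the strand setting of the counting, so reads from the 2 genes may not be told apart. Ccdc85b was at 1811 and 2093 normalized counts in PBS and 1586 and 1612 in rIL17, a log2 fold change of -0.28 (SE 0.09, limma adjusted p = 0.373), the same size as that of Fosl1. Whether shared reads take part in either value was not tested.

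Fosl2 encodes FRA-2, the other FOS-related antigen. Its RNA was at 2284 and 2114 normalized counts in PBS and at 2421 and 2500 in rIL17, so that the rIL17 libraries lay above, with a gap smaller than the spread within PBS. The log2 fold change was 0.16 (SE 0.06, 95% interval -0.01 to 0.33, limma adjusted p = 0.404), and 0.20 with the GC correction. With the stricter filter the adjusted p was 0.313. The log2 fold change was 0.22 and 0.11 without PBS replicate 1 and 2, and 0.19 and 0.14 without rIL17 replicate 1 and 2.

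Fos and Fosb, the FOS genes with a transactivation domain and the typical immediate early response, were scarce. Fos (ENSMUSG00000021250, mm10 chromosome 12, 85473890 to 85477273, plus strand) was at 45.1 and 40.8 normalized counts in PBS and at 68.4 and 60.2 in rIL17, the largest difference of the 10 genes on the log2 scale. The means, 43.0 ± 3.08 and 64.3 ± 5.79 (SD, n = 2 per group), put rIL17 49.6% above PBS, with a log2 fold change of 0.57 (SE 0.17, 95% interval 0.08 to 1.06) and a limma adjusted p of 0.373, or 0.277 with the stricter filter. The GC correction left it at 0.60. Fosb was at 91.2 and 84.5 in PBS and at 95.5 and 116 in rIL17. The 2 rIL17 libraries of Fosb differed from each other by more than the lower of them differed from PBS, and the log2 fold change of 0.26 (SE 0.16, 95% interval -0.19 to 0.71) had a limma adjusted p of 0.547. It was 0.40 without rIL17 replicate 1, 0.12 without rIL17 replicate 2 and 0.31 with the GC correction.

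The JUN genes differed in what they showed. Jund (ENSMUSG00000071076, mm10 chromosome 8, 70698949 to 70700616, plus strand) encodes a protein that is often the steady partner in resting cells. It was at 1842 and 1815 normalized counts in PBS and at 1526 and 1610 in rIL17. The groups did not overlap, rIL17 being the lower, with a log2 fold change of -0.22 (SE 0.05, 95% interval -0.37 to -0.08, limma adjusted p = 0.373, and 0.198 with the stricter filter). It was -0.17 with the GC correction. Of the Jund exon bases, 52.6% lie opposite the antisense gene Gm11175, for which no value was used here.

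Jun, which encodes c-Jun, the main target of JNK kinases among AP-1 proteins, was at 2525 and 2676 in PBS and at 2265 and 2441 in rIL17. The groups did not overlap, but the gap between them was smaller than the spread within either group, and the log2 fold change was -0.14 (SE 0.06, 95% interval -0.33 to 0.04, limma adjusted p = 0.448), or -0.10 with the GC correction. Junb, a JUN gene that can act as a weaker activator than Jun, was at 3371 and 3656 in PBS and at 3522 and 3487 in rIL17. Both rIL17 libraries of Junb lay between the PBS libraries. Its log2 fold change was -0.003 (95% interval -0.17 to 0.16, limma adjusted p = 0.995), a sign that turned to 0.04 with the GC correction. Exons opposite Jun and Junb, of Junos and Prdx2, cover 7.28% and 7.52% of their exon bases.

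Among the genes of the other bZIP subfamilies, Atf3 was the one with separate groups and an interval away from 0. ATF3 is a stress-induced factor that can repress as a homodimer, and its gene (ENSMUSG00000026628) lies on mm10 chromosome 1, 191170296 to 191218039, minus strand, on the same chromosome as Batf3 (191097847 to 191108945). Its RNA was at 228 in each PBS library and at 184 and 177 in the rIL17 libraries, so the rIL17 libraries lay below. The log2 fold change was -0.34 (SE 0.08, 95% interval -0.57 to -0.10), the ratio of PBS to rIL17 was 1.26, and the limma adjusted p was 0.373, or 0.252 with the stricter filter. With the GC correction the value was -0.30.

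Batf3, a JUN partner known for its role in dendritic cell development, was at 96.2 and 97.5 in PBS and at 98.5 and 101 in rIL17. The groups did not overlap, but they lay 3.21% apart, and the log2 fold change of 0.04 had a 95% interval of -0.27 to 0.36 (limma adjusted p = 0.878), and was 0.09 with the GC correction. Maff, a small MAF protein without a transactivation domain that pairs with CNC-type and other bZIP proteins, was at 1440 and 1504 in PBS and at 1485 and 1471 in rIL17. The rIL17 libraries again lay between the PBS libraries, with a log2 fold change of 0.006 (95% interval -0.13 to 0.14, limma adjusted p = 0.961), or 0.05 with the GC correction. With total-count or upper-quartile scaling the sign for Maff turned (-0.02 and -0.04), and that for Batf3 turned with upper-quartile scaling (-0.004).

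**Figure D2:**
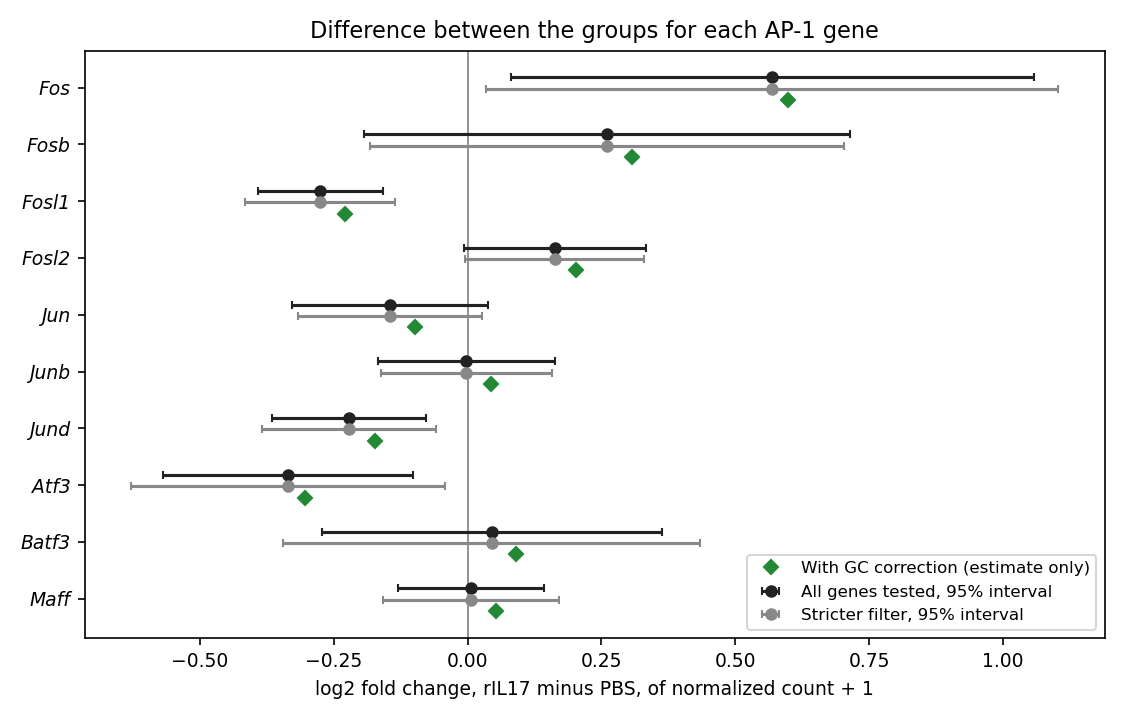
Log2 fold change (rIL17 minus PBS, horizontal axis) of each AP-1 gene, with the 95% confidence interval over all genes tested (black) and with the stricter filter (grey), and the estimate with GC correction (green). The intervals of Fos, Fosl1, Jund and Atf3 lie on 1 side of 0, on the higher side for Fos (0.57) and on the lower for the other three, and none of the 10 genes passed after adjustment.

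Levels between genes were compared as normalized counts per kb of exon. In PBS the order was Fosl1 at 2143 ± 24.5 per kb (SD, n = 2), Junb at 1527 ± 87.6, Jund at 1096 ± 11.4, Jun at 816 ± 33.4, Maff at 567 ± 17.2, Fosl2 at 227 ± 12.4, Atf3 at 106 ± 0.0303, Batf3 at 60.6 ± 0.575, Fos at 18.3 ± 1.31 and Fosb at 14.1 ± 0.761. Each pair of neighbours in that order was further apart than the ranges of their libraries. In rIL17 the order was the same. Measured on the longest transcript instead of all exons, Fosb (23.2 per kb) lay above Fos (20.4 per kb) in PBS, and in rIL17 the 2 genes overlapped. The levels of Fosl1 and Jund may be too high or too low, as the handling of reads in their overlaps with opposite genes is not given.

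The FOS pool was therefore mostly Fosl1 RNA. Fosl1 made up 88.7% and 89.7% of the summed FOS level per kb in the PBS libraries and 85.6% in each rIL17 library. Fosl2 made up 9.85% and 9.06% in PBS and 12.3% in each rIL17 library. Fos made up 0.801% and 0.719% in PBS and 1.43% and 1.22% in rIL17. The shares of Fosl1 did not overlap between the groups, nor did those of Fosl2, Fos and Fosb. A lower share of Fosl1 raises the shares of the others, so these are not separate results. The summed FOS level was 2396 and 2410 per kb in PBS and 2039 and 2098 in rIL17. With 2 libraries against 2 no exact permutation test can pass the threshold, so these are descriptions.

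The JUN pool was spread over its 3 genes. Junb made up 43.6% and 45.2% of the summed level per kb in PBS and 48.5% and 46.7% in rIL17, Jund 32.8% and 30.9% against 29.0% and 29.7%, and Jun 23.6% and 23.9% against 22.5% and 23.6%. Junb and Jund shares did not overlap between the groups, whereas the Jun share did, at the edge. Shares of a pool depend on each other, and the Junb level itself overlapped between the groups. The summed JUN level was 3361 and 3516 per kb in PBS and 3156 and 3246 in rIL17. The ratio of the FOS to the JUN level was 0.713 and 0.685 in PBS and 0.646 in each rIL17 library. RNA shares do not give the shares of protein dimers, which were not measured.

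**Figure D3:**
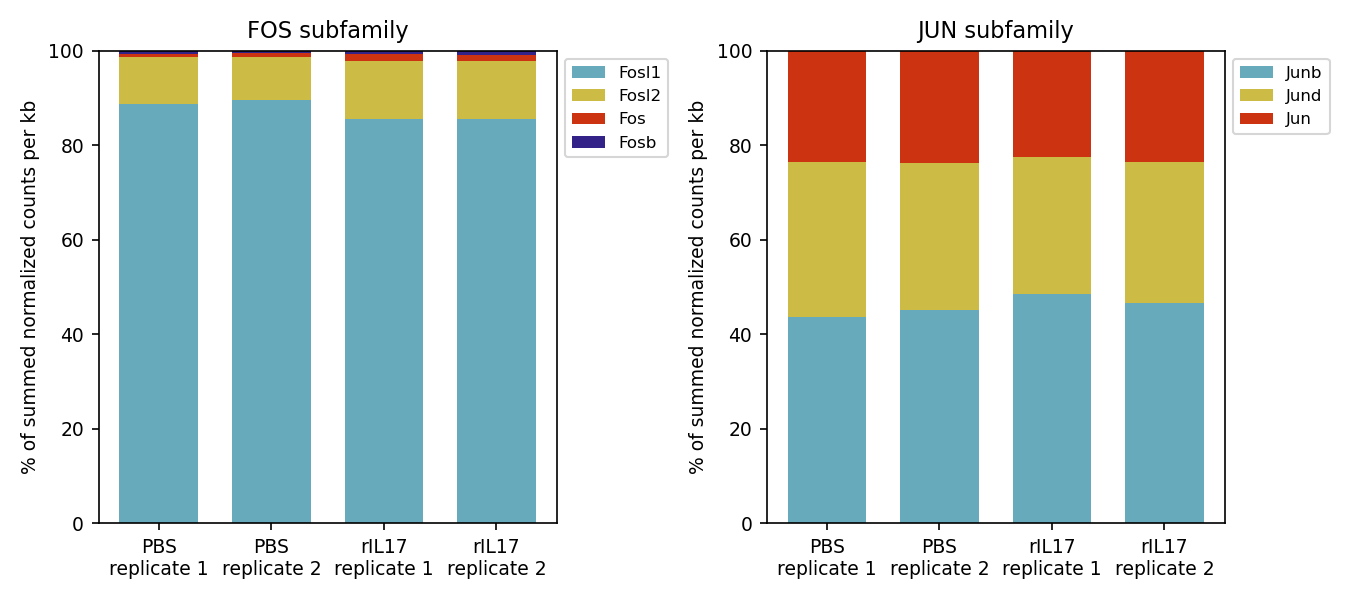
Share of each gene in the summed normalized counts per kb of exon of its subfamily (vertical axis, %), by library, for FOS genes (left) and JUN genes (right). Fosl1 fills 85.6% to 89.7% of the FOS level in every library, and Junb is the largest JUN share in each.

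Other genes around AP-1 were described by lists. Of 9 tested AP-1 related bZIP genes, 0 passed limma over all genes or with the stricter filter, in either direction. Both rIL17 libraries lay above both of PBS in 2 and below in 3, against 25.4% and 20.0% of all genes. Their median log2 fold change was 0.01, the same as for all genes. Jdp2, which encodes a repressor that pairs with JUN, was at 1254 and 1195 normalized counts in PBS and at 1061 and 1017 in rIL17 (log2 fold change -0.24, SE 0.06, limma adjusted p = 0.373). Atf2, whose protein pairs with c-Jun, was at 1474 and 1227 in PBS and at 1822 and 1731 in rIL17 (0.40, SE 0.11), but -0.008 with the GC correction, its transcript having 40.5% GC in the longest form. Mafk, another small MAF gene, had a log2 fold change of -0.14.

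Of 19 tested MAP kinases and kinases upstream of them, 0 passed limma over all genes or with the stricter filter. Both rIL17 libraries lay above in 6 and below in 2, against 25.4% and 20.0% of all genes, and the median log2 fold change was 0.06, or 0.02 with the GC correction. Map3k8, which encodes the kinase TPL2, was at 79.5 and 75.6 normalized counts in PBS and at 110 and 100.3 in rIL17 (0.43, SE 0.13, limma adjusted p = 0.373). Mapk8, the gene of the JNK1 kinase, had 0.32 and turned to -0.14 with the GC correction. Map3k5, encoding ASK1, had 0.13, and Map2k7, encoding a kinase that acts on JNK, -0.12. Among the 6 genes of the serum response factor and its partners, 0 passed by either filter and the median was 0.04. Elk1 (-0.19), Elk3 (0.14), Elk4 (0.05) and Mrtfb (0.06) had the smallest p of that list.

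Other immediate early genes lay on both sides of PBS. Of 20 tested, 0 passed limma over all genes, and with the stricter filter 1 of 18 passed (0.807% of all genes), Ier3, which encodes a survival and stress regulator (log2 fold change 0.73, limma adjusted p = 0.014). Ier3 also passed over all genes with the GC correction (limma adjusted p = 0.00967). The stricter-filter count of 1 fell without either rIL17 library and rose without either PBS library, as did the count over all genes. Both rIL17 libraries lay above in 3 genes and below in 8, against 25.4% and 20.0% of all genes, with a median of -0.08. Egr1, a zinc finger factor that shares its serum response control with Fos, was at 398 and 477 normalized counts in PBS and at 298 and 299.9 in rIL17, a log2 fold change of -0.54 (SE 0.11, limma adjusted p = 0.373, and 0.117 with the stricter filter). Fos lay above PBS and Egr1 below it in both rIL17 libraries. Ccn1 and Ccn2, encoding matrix-associated proteins that respond to serum response factor and YAP, had -0.28 (SE 0.04) and -0.72 (SE 0.18).

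Genes known as AP-1 targets, mostly of matrix proteolysis, growth and inflammation, were taken as the last list. Of 20 tested, 0 passed limma over all genes. With the stricter filter 5 of 18 rose and 1 fell, against 0.807% of all genes. Il6, at 8.83 and 8.95 normalized counts in PBS and 81.4 and 71.2 in rIL17, passed that filter only through the rIL17 group. Of the 20, 13 had both rIL17 libraries above and 4 below, against 25.4% and 20.0% of all genes. Several of these genes are also targets of NF-kB and C/EBP factors and of IL-17A itself, and earlier results on these libraries were known when the list was written, so the count is not independent evidence on AP-1. Mmp3, encoding stromelysin-1, was at 7174 and 6843 normalized counts in PBS and at 9881 and 9231 in rIL17 (log2 fold change 0.45, SE 0.06, limma adjusted p = 0.0445 with the stricter filter). The others that rose were the collagenase gene Mmp13 (2.04), the gelatinase gene Mmp9 (0.85), the chemokine gene Cxcl1 (0.80) and the cytokine gene Il6 (2.96), and Plau, encoding urokinase, fell by 0.51. The count of 5 and 1 was the same with the GC correction and that filter, under which 308 of 12515 genes passed. It fell without either rIL17 library and rose without either PBS library, as did the count over all genes. The median of the list was 0.17, and 0.08 with the GC correction, beside 0.01 and -0.02 for all genes.

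**Figure D4:**
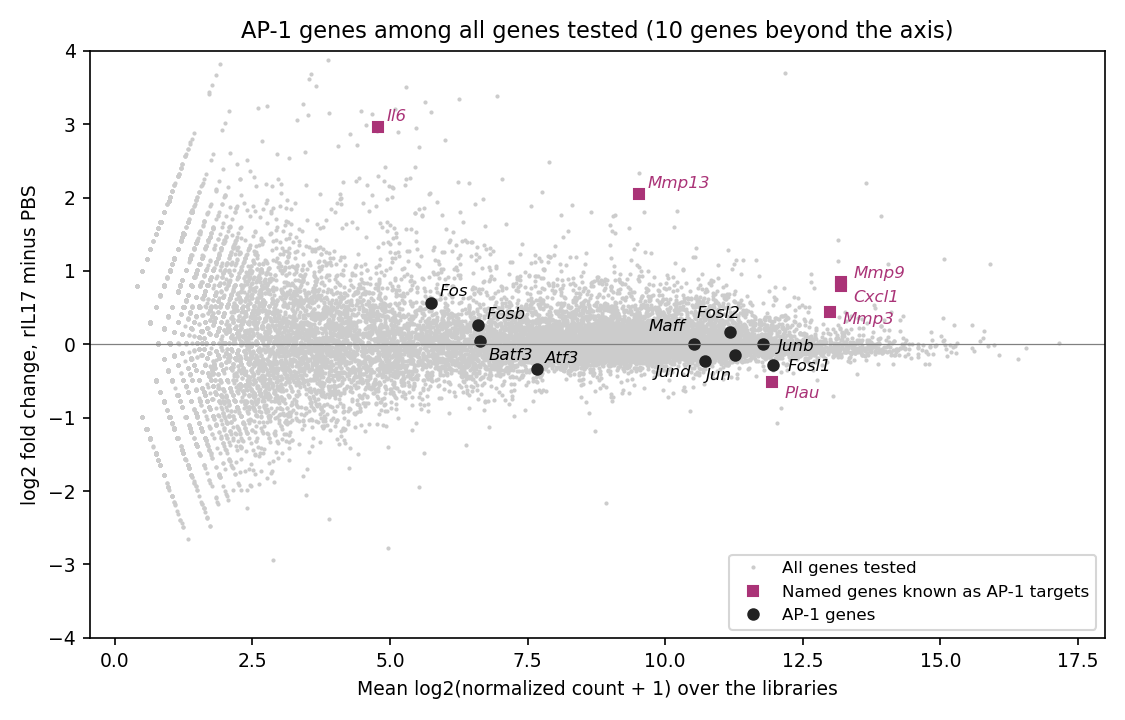
Log2 fold change (rIL17 minus PBS, vertical axis) against the mean log2(normalized count + 1) over the 4 libraries (horizontal axis) for all 20677 genes tested, with the AP-1 genes in black and the named genes known as AP-1 targets in purple; 10 genes lie beyond the axis. The AP-1 genes lie between -0.34 and 0.57, while Il6 and Mmp13 lie above 2.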

How the data were processed

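Gene expression was measured by RNA sequencing of 4 libraries. Per the labels' protocols the kit was directional. Per the submitters' processing notes the authors used CASAVA, HISAT2 2.0.5 and featureCounts 1.5.0-p3 on mm10; annotation, strand setting and scaling tool: not given in the sources used here. The deposited values are a normalized signal in which 100.0% of values above 0 are whole multiples of 1 step per library, within 0.001. If 1 step is 1 read, they come to 17511450 to 17970104 reads. The steps lie so close to 1 that this could not be settled, so count tests were not run, and limma 3.58.1 (R 4.3.3, mean-variance trend) was fitted to log2(value + 1) for genes with a mean of at least 1 in 1 group. This scale understates changes of scarce genes. Tested on simulated data, that fit recovered the size of planted fold changes but made no calls, whereas the stricter filter called them. Both adjusted p-values are therefore given for the AP-1 genes. With the stricter filter the limma adjusted p was 0.517 for Fosb, 0.367 for Jun, 0.990 for Junb, 0.915 for Batf3 and 0.971 for Maff. For most genes of the other lists only 1 of the 2 is given. The planted changes were larger than any AP-1 difference here, so the power for differences of that size was not tested. Alternatives were other pseudocounts, filters and scalings, limma-voom, the replicate number as a block, a loess correction on GC content of the longest transcript (span 0.5) and each library left out. Symbols were matched for 21819 of 21840 genes. Gene positions and exons are those of GENCODE M21 on mm10 and promoters those of RefSeq (GRCm38.p6). Named genes are the 10 AP-1 genes and, from each list, those that passed and up to 4 with the smallest p; 1 of these is not reported here. Genes and lists were chosen with earlier results of these data known.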

Additional observations from a re-analysis of the deposited data

How the results depend on the processing

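The signs of Fos, Fosb, Fosl1, Fosl2, Jun, Jund and Atf3 held under the 20 alternatives run, with log2 fold changes of 0.48 to 0.66, 0.12 to 0.40, -0.33 to -0.22, 0.11 to 0.22, -0.20 to -0.08, -0.27 to -0.16 and -0.39 to -0.28. Many of these alternatives could not have turned a sign. A filter or the replicate block alone leaves a log2 fold change as it was. The groups of these genes do not overlap, so another pseudocount or a library left out keeps the sign. Only the scalings, limma-voom and the GC correction could have turned it. The values near 0 turned: Junb to 0.044 with the GC correction, alone or with the replicate block, and to 0.059 with it and the stricter filter, and, with a library left out, from -0.061 to 0.056 (0.0047 without rIL17 replicate 2); Maff to -0.043 with upper-quartile scaling, to -0.023 with total-count scaling and with limma-voom under either filter, and, with a library left out, from -0.025 to 0.037 (-0.0003 without rIL17 replicate 1); Batf3 to -0.0041 with upper-quartile scaling. The median of the 10 genes, 0.002, was -0.048 with upper-quartile scaling, -0.028 with total-count scaling and with limma-voom under either filter, 0.048 with the GC correction, alone or with the replicate block, 0.063 with it and the stricter filter, and -0.043 to 0.046 with a library left out.

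Over all genes limma called 0, and 1 with total-count scaling or limma-voom, 101 with the stricter filter, 71 with the GC correction, 22 with it and the replicate block and 308 with it and the stricter filter. Combinations added after seeing the data called 191 (stricter filter with limma-voom), 1032 (stricter filter with the replicate block) and, with the stricter filter and a library left out, 2734 and 686 without PBS replicate 1 and 2 and 1 and 4 without rIL17 replicate 1 and 2. Of the AP-1 genes, 1 was called with the stricter filter and the replicate block (Fosl1, limma adjusted p = 0.0269), and 0 to 2 with that filter and a library left out; the others called 0. Replicate numbers are not known to pair the libraries. Same-numbered libraries deviated together with a correlation of 0.157 over 12515 genes. With 2 libraries per group, any correlation other than 0 favours 1 way of pairing them. Below 40% GC replicate 2 also lay below replicate 1 in both groups (median -0.47 in PBS and -0.15 in rIL17). The correlation therefore cannot decide whether the libraries are paired. The replicate block alone called 0 genes. A group of 1 library is assumed to vary like the other group. The planned edgeR and DESeq2 fits were not run, and the protein comparison was not made.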
